A study of Danio rerio with 10 samples.

Results

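The genes igfbp1a, igfbp1b, higd1a, bnip3 and bnip3lb are known for their induction in low oxygen or for their part in the removal of mitochondria. They were chosen by gene symbol, with earlier results of these data known. They were read by 8 of the 15502 probe sets tested on a 1-colour Affymetrix GeneChip array for zebrafish. All 5 genes were measured. igfbp1a (Entrez ID 317638), higd1a (373084) and bnip3lb (554650) each had a first and a second probe set, named in the plot of values by array, and igfbp1b (793907) and bnip3 (336116) had 1 each. RNA came from whole wild-type embryos at 72 h after fertilization, which had received 1 to 2 nL of a 130 micromol/L morpholino solution at the 1- to 2-cell stage. A morpholino is an antisense oligonucleotide that blocks the translation or splicing of its target for the first days of development. The 10 arrays comprised 3 of embryos with a control morpholino, 3 with an Atg7 morpholino, 3 with Atg7 and Bdh2 morpholinos together (dual morphants) and 1 with the Bdh2 morpholino alone. The sources used here do not give the number of embryos per array, the type of control morpholino or the dose of each morpholino in dual morphants. Whether replicates were separate clutches or only separate preparations is not stated, and the p-values reflect the spread among these arrays alone.

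Cells sense oxygen through prolyl hydroxylases (egln genes) that mark the alpha subunits of hypoxia-inducible factor (HIF) for destruction by the von Hippel-Lindau protein. In low oxygen the alpha subunits escape, pair with Arnt and switch on genes for glucose use, red cell production, vessel growth and mitochondrial remodelling. Igfbp1 proteins are secreted, bind insulin-like growth factors and restrain growth, and zebrafish embryos are known to raise igfbp1 in hypoxia. Higd1a is, in mammals, a protein of the inner mitochondrial membrane that acts on the respiratory chain. Bnip3 and Bnip3l sit on the outer mitochondrial membrane and tether it to the autophagosome. In mammals BNIP3L (also called NIX) clears the mitochondria of maturing red cells. Atg7 is an enzyme of the conjugation reactions that put LC3 proteins on the autophagosome, and Bdh2 is a dehydrogenase known in mammals for making a siderophore, a small iron-binding molecule. The question put to these genes was whether fewer red cell transcripts go with a hypoxia response.

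Deposited log2 intensities were compared, and array medians lay between 6.33 and 6.38. Over all probe sets, arrays of a triplicate group had a Pearson's r of 0.997 to 0.999 and arrays of different groups 0.980 to 0.996, and no array stood apart from the others of its group. The target gene bdh2, read by 1 probe set, averaged 7.17 in control, 7.21 in Atg7 and 7.28 in dual morphants and stood at 7.47 in the Bdh2 morphant. It was not lower with the Bdh2 morpholino. In the lone Bdh2 array bdh2 was 0.30 ± 0.10 above controls, a call lost in 6 of 14 alternatives. atg7 had no named probe set, and a morpholino need not lower its target's RNA, so the labels could not be checked this way. As a sign of RNA quality, the actin signal at the 3 prime end minus that at the 5 prime end was 3.41 to 3.53 in control, 3.86 to 4.05 in Atg7 and 3.83 to 3.91 in dual arrays, with 4.30 for the lone Bdh2 array. Its differences from control were 0.47 for Atg7 and 0.41 for dual, with p = 0.1 for each by an exact permutation test, two-sided, which is the smallest p that 3 against 3 arrays can give. The same measure for GAPDH differed less, by 0.081 for Atg7 (exact p = 0.4) and 0.11 for dual (exact p = 0.1). The part of these differences in the results that follow was not tested.

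Of the 5 genes, 4 were lower in dual than in control morphants and igfbp1b was higher. igfbp1a was the gene with the widest swing: it was 1.39-fold to 1.42-fold higher in Atg7 morphants and 1.81-fold to 1.87-fold lower in dual morphants than in controls. The mitophagy receptor genes bnip3 and bnip3lb and the mitochondrial gene higd1a had values in Atg7 morphants that were not called different from control. In 6 of the 8 probe sets all 4 arrays that carried the Bdh2 morpholino lay below all 6 arrays that did not. Over the whole array 12.4% of probe sets had this order.

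igfbp1a encodes a secreted binding protein of insulin-like growth factors. Its first probe set read 8.86, 8.92 and 8.92 on the control arrays, 9.35, 9.37 and 9.40 on the Atg7 arrays, 8.01, 8.03 and 7.95 on the dual arrays and 8.36 on the Bdh2 array. The groups did not overlap, and their order was dual, Bdh2, control and Atg7 from low to high. It rose by 0.48 ± 0.055 (SE) in Atg7 morphants relative to controls (adjusted p = 0.00025) and fell by 0.90 ± 0.055 in dual morphants (adjusted p = 2.21e-07). Dual morphants lay 2.59-fold below Atg7 morphants, a difference of -1.38 ± 0.055 (adjusted p = 5.96e-09). Every step between neighbours in that order passed the threshold, since the Bdh2 array was 0.54 ± 0.078 below control (adjusted p = 0.000337) and dual minus Bdh2 was -0.36 ± 0.078 (adjusted p = 0.0112). The Bdh2 group held 1 array, so each comparison with it assumed that it varied like the other groups and had no replicate check.

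The second igfbp1a probe set gave 9.48, 9.44 and 9.36 in controls, 9.90, 9.93 and 9.98 in Atg7 morphants, 8.62, 8.61 and 8.48 in dual morphants and 9.01 in the Bdh2 morphant. It repeated the order of the first. It differed from control by 0.51 ± 0.063 in Atg7 morphants (adjusted p = 0.000389) and by -0.86 ± 0.063 in dual morphants (adjusted p = 1.07e-06), and dual from Atg7 morphants by -1.37 ± 0.063 (adjusted p = 1.86e-08). In all 15 alternatives run for these 3 comparisons, both igfbp1a probe sets kept their direction and their side of the threshold. Dual minus control ranked 159th and 176th from the lowest of the 15502 probe sets for the pair, and dual minus Atg7 62nd and 65th.

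igfbp1b, the duplicate of igfbp1a, did not follow it into the dual morphants. Its values were 5.90, 5.80 and 5.89 in controls, 6.23, 6.10 and 6.41 in Atg7 morphants, 6.34, 6.26 and 6.19 in dual morphants and 6.30 in the Bdh2 morphant. All 7 arrays with an Atg7 or Bdh2 morpholino lay above the 3 control arrays, and among themselves they overlapped. The gene rose by 0.38 ± 0.080 in Atg7 minus control (adjusted p = 0.0118) and by 0.40 ± 0.080 in dual minus control (adjusted p = 0.00236). The Bdh2 array was higher by 0.43 ± 0.11 (adjusted p = 0.0134). The call in Atg7 minus control ended without control replicate 2 (0.35, adjusted p = 0.0551). Dual minus Atg7 was 0.016 ± 0.080, with a 95% interval from -0.16 to 0.19 (adjusted p = 0.902). Taken within each array, the log2 ratio of igfbp1a, read by its second probe set only, to igfbp1b was 1.25 lower in dual than in control morphants (exact permutation test, two-sided, p = 0.1, the smallest possible here). This ratio differed by 0.13 between Atg7 and control morphants (exact p = 0.3).

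**Figure D1:**
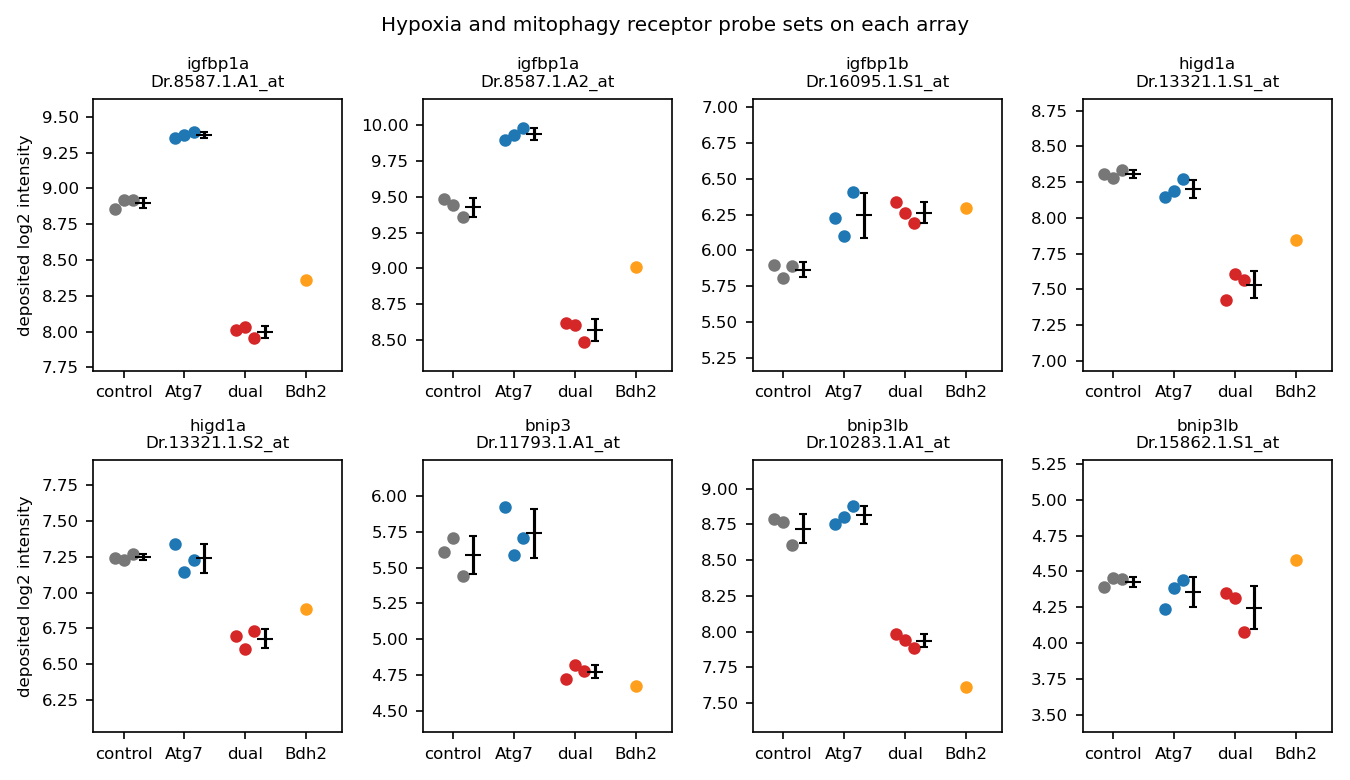
Deposited log2 intensity (vertical axis, each panel spanning the same width on the log2 scale) of the 8 probe sets on each array, by group on the horizontal axis. Points are arrays, and the bars beside the triplicate groups are the mean ± SD (n = 3). In 6 panels the dual and Bdh2 arrays lie below the control and Atg7 arrays, and igfbp1b and the dim second probe set of bnip3lb are the exceptions.

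higd1a encodes a small protein of the mitochondrial inner membrane and is a known hypoxia-induced gene. The first probe set read 8.31, 8.28 and 8.34 in controls, 8.15, 8.19 and 8.27 in Atg7 morphants, 7.43, 7.61 and 7.56 in dual morphants and 7.85 in the Bdh2 morphant. Dual arrays were the lowest and the Bdh2 array lay between them and the rest. The gene fell by 0.77 ± 0.065 in dual morphants relative to controls (1.71-fold lower, adjusted p = 3.22e-06) and by 0.67 ± 0.065 relative to Atg7 morphants (adjusted p = 1.11e-05). The Atg7 arrays lay just under the controls without overlap, at -0.11 ± 0.065 (95% interval -0.25 to 0.04, adjusted p = 0.34), which did not pass the threshold. In the Bdh2 array the gene was lower than in controls by 0.46 ± 0.092 (adjusted p = 0.00283).

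The second higd1a probe set read 7.24, 7.23 and 7.27 in controls, 7.34, 7.14 and 7.23 in Atg7 morphants, 6.70, 6.61 and 6.73 in dual morphants and 6.89 in the Bdh2 morphant. Its changes had the same direction in the groups with the Bdh2 morpholino and were smaller, at -0.57 ± 0.065 in dual minus control (adjusted p = 4.36e-05), -0.56 ± 0.065 in dual minus Atg7 (adjusted p = 4.85e-05) and -0.36 ± 0.093 in Bdh2 minus control (adjusted p = 0.0129). Control and Atg7 arrays overlapped here (difference -0.0079 ± 0.065, 95% interval -0.15 to 0.14). Dual minus Bdh2 was -0.31 ± 0.092 (adjusted p = 0.0457) in the first probe set, a call lost in 9 of 14 alternatives, and -0.21 ± 0.093 (adjusted p = 0.177) in the second.

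bnip3 encodes a receptor on the outer mitochondrial membrane that binds LC3 proteins and draws the organelle into the autophagosome. It read 5.61, 5.71 and 5.44 in controls, 5.93, 5.59 and 5.71 in Atg7 morphants, 4.72, 4.82 and 4.78 in dual morphants and 4.67 in the Bdh2 morphant. Control and Atg7 arrays overlapped, and the 4 arrays with the Bdh2 morpholino formed a narrow group well below them. It fell by 0.81 ± 0.091 in dual minus control (1.76-fold lower, adjusted p = 3.47e-05) and by 0.97 ± 0.091 in dual minus Atg7 (1.95-fold lower, adjusted p = 8.64e-06). The Bdh2 array was 0.91 ± 0.13 lower than controls (adjusted p = 0.000277), and dual minus Bdh2 was 0.10 ± 0.13 (95% interval -0.18 to 0.38, adjusted p = 0.673). Its control level lay at the 38.5th percentile of all probe sets. The Atg7 minus control difference was 0.15 ± 0.091 (95% interval -0.05 to 0.35, adjusted p = 0.329).

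bnip3lb is a zebrafish counterpart of mammalian BNIP3L, the mitophagy receptor of maturing red cells. Its first probe set gave 8.79, 8.77 and 8.61 in controls, 8.76, 8.80 and 8.88 in Atg7 morphants, 7.98, 7.94 and 7.89 in dual morphants and 7.61 in the Bdh2 morphant. Here the Bdh2 array was the lowest of all 10, and control and Atg7 arrays overlapped (0.092 ± 0.067, 95% interval -0.05 to 0.24, adjusted p = 0.429). The gene fell by 0.78 ± 0.067 in dual minus control (1.72-fold lower, adjusted p = 3.85e-06) and by 0.87 ± 0.067 in dual minus Atg7 (adjusted p = 1.45e-06), and the Bdh2 array was 1.11 ± 0.095 below controls (2.15-fold lower, adjusted p = 5.95e-06). Dual minus Bdh2 was 0.32 ± 0.095 (adjusted p = 0.0458), a call lost in 8 of 14 alternatives.

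The second bnip3lb probe set had no call. It was dim, at the 21.5th percentile in controls, and read 4.39, 4.45 and 4.45 in controls, 4.24, 4.39 and 4.44 in Atg7 morphants, 4.35, 4.32 and 4.07 in dual morphants and 4.58 in the Bdh2 morphant. Dual minus control was -0.18 ± 0.081 (adjusted p = 0.112), dual minus Atg7 -0.11 ± 0.081 (adjusted p = 0.35) and Bdh2 minus control 0.15 ± 0.12 (adjusted p = 0.375). The pair of probe sets for bnip3lb therefore differed in their calls. Their direction was the same in dual minus control and dual minus Atg7, and opposite in Bdh2 minus control. The statements on this gene rest on the first one.

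Counted over the 8 probe sets, 3 were higher and 0 lower in Atg7 minus control, where 9.91% of all probe sets were called (6.26% higher and 3.64% lower). Dual minus control had 1 higher and 6 lower against 32.5% of all probe sets called, 16.7% higher and 15.9% lower. Dual minus Atg7 had 0 higher and 6 lower against 33% called, 15.8% higher and 17.2% lower. For the lone Bdh2 array the same 1 was higher and the same 6 lower than in controls, against 28.2% called, 15% higher and 13.2% lower. Dual minus Bdh2 had 1 higher and 3 lower against 12.1% called, 6.53% higher and 5.53% lower. The arrays of both groups did not overlap in 4 of the 8 probe sets for Atg7 and control (30.4% over the whole array), in all 8 for dual and control (46.4%) and in 6 for dual and Atg7 (44.1%). The comparisons of Atg7, dual and Bdh2 with control share the 3 control arrays, so their values are given side by side and no agreement between them is read from them. Probe sets of 1 gene share a transcript and are not independent. The genes were chosen with earlier results of these data known, so the counts beside the whole-array shares are a description and not a test.

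**Figure D2:**
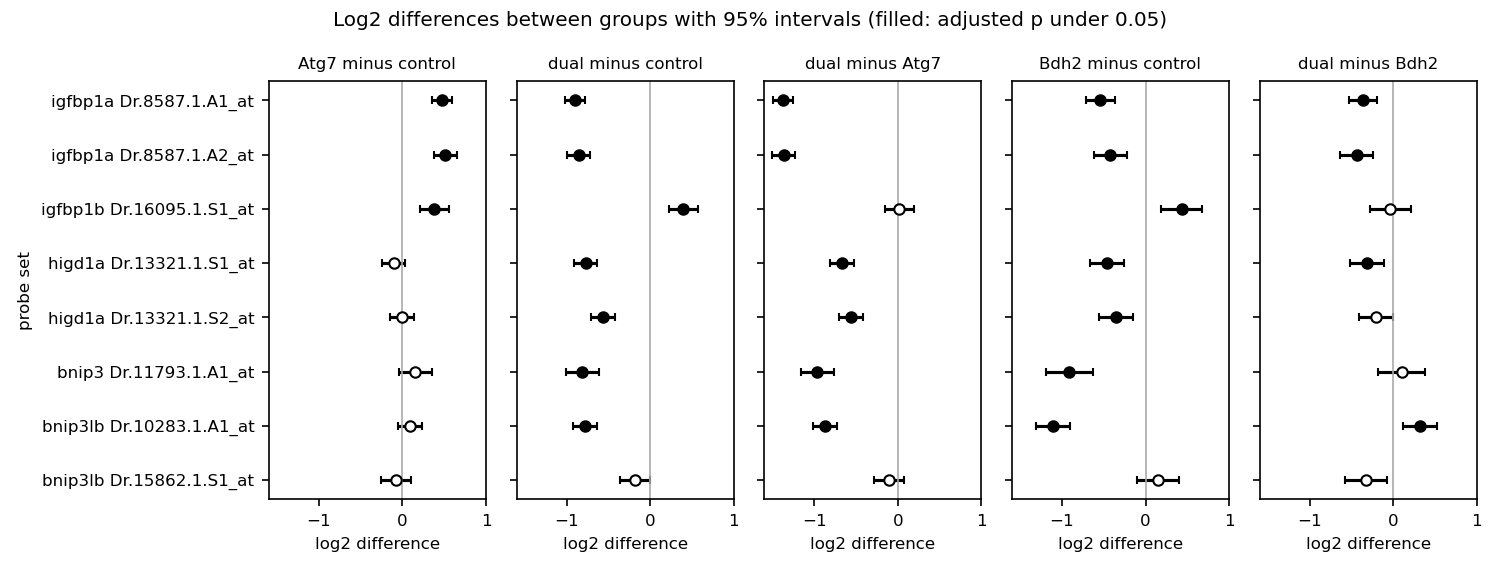
Log2 differences (horizontal axis) of the 8 probe sets (vertical axis) in 5 comparisons, with 95% intervals from the limma fit; filled points passed an adjusted p of 0.05. igfbp1a lies right of zero in Atg7 minus control and left of it in the other 4 panels, and the largest fall is its -1.38 in dual minus Atg7.

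Whether the effects of both morpholinos added up was asked by dual minus Atg7 minus Bdh2 plus control on the log2 scale, for which 8.13% of all probe sets were called, 3.81% higher and 4.32% lower. Only igfbp1a among the 5 genes passed, in both probe sets, at -0.84 ± 0.096 (adjusted p = 0.000281) and -0.95 ± 0.11 (adjusted p = 0.000294). In the groups without the Bdh2 morpholino the Atg7 morpholino went with differences of 0.48 and 0.51 in igfbp1a, and in the groups with it with -0.36 and -0.44. The departure was -0.42 ± 0.14 for igfbp1b (adjusted p = 0.0954), which passed without Atg7 replicate 2 (-0.49, adjusted p = 0.0447). For higd1a, bnip3 and bnip3lb it lay between -0.26 and 0.23, with adjusted p from 0.285 to 0.9. All of these values rest on the lone Bdh2 array. The dose of each morpholino in dual morphants is not given, so a different dose and a departure from additivity cannot be told apart.

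Most red cell markers measured were lower in Atg7 as well as in dual morphants, whereas igfbp1a and igfbp1b were higher in the former. The red cell genes given singly in this paragraph were picked by name. hbbe2, an embryonic beta globin, read 10.96, 10.94 and 10.91 in controls, 9.43, 9.36 and 9.50 in Atg7 morphants, 7.47, 7.43 and 7.38 in dual morphants and 7.04 in the Bdh2 morphant. slc4a1a, which encodes the main anion exchanger of red cells, read 9.45 to 9.48 in controls, 7.77 to 7.89 in Atg7 morphants, 7.60 to 7.74 in dual morphants and 7.63 in the Bdh2 morphant. For both genes no morphant array reached the control range. The erythroid heme enzyme gene alas2 was at -1.45 ± 0.075 in Atg7 minus control and -1.90 ± 0.075 in dual minus control (adjusted p = 4.58e-07 and 4.38e-09), and cahz, the red cell carbonic anhydrase, at -1.04 ± 0.083 and -1.89 ± 0.083 (adjusted p = 1.29e-05 and 1.04e-08). gata1a, the main transcription factor of the red cell lineage, fell by 0.59 ± 0.10 and by 0.74 ± 0.10 (adjusted p = 0.0039 and 0.00017), and its -0.30 in the Bdh2 array was not called (adjusted p = 0.15). The gata1a probe set was dim, with means of 4.73 in control, 4.14 in Atg7 and 3.98 in dual morphants. In RNA of whole embryos, fewer cells of a type and less RNA per cell cannot be told apart.

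Over the list of erythroid markers, 21 of 34 genes were measured by 22 probe sets. In Atg7 minus control 14 probe sets fell and 0 rose, or 63.6% and 0% of them, where 3.64% of all probe sets were lower and 6.26% higher (median -0.43, against -0.0092 over all probe sets). In dual minus control 16 fell and 1 rose, or 72.7% and 4.55%, where 15.9% of all were lower and 16.7% higher (median -0.51, against -0.0077). The rise was in blvrb, at 0.84 ± 0.082 (adjusted p = 1.1e-05), and 5 probe sets were not called. blvrb stood at 0.22 in Atg7 minus control, not called (adjusted p = 0.118), and at 0.90 in Bdh2 minus control. Dual minus Atg7 had 8 falls and 1 rise, or 36.4% and 4.55%, where 17.2% of all were lower and 15.8% higher (median -0.13, against 0.012). The difference of slc4a1a there, -0.18 (adjusted p = 0.0414), was lost as a call in 10 of 15 alternatives. The summed level of the list, as log2 of the summed linear intensities and so set mainly by its brightest probe sets, was 15.2 to 15.3 in control, 14.4 to 14.5 in Atg7 and 13.7 to 13.8 in dual arrays, with 13.9 for the lone Bdh2 array. In Atg7 morphants, then, most red cell markers were lower while igfbp1a and igfbp1b were higher and higd1a, bnip3 and bnip3lb were not called. In dual morphants most red cell markers were lower than in controls too, and so were igfbp1a, higd1a, bnip3 and the first bnip3lb probe set. A correlation over the arrays was not computed, because they fall into separate groups.

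**Figure D3:**
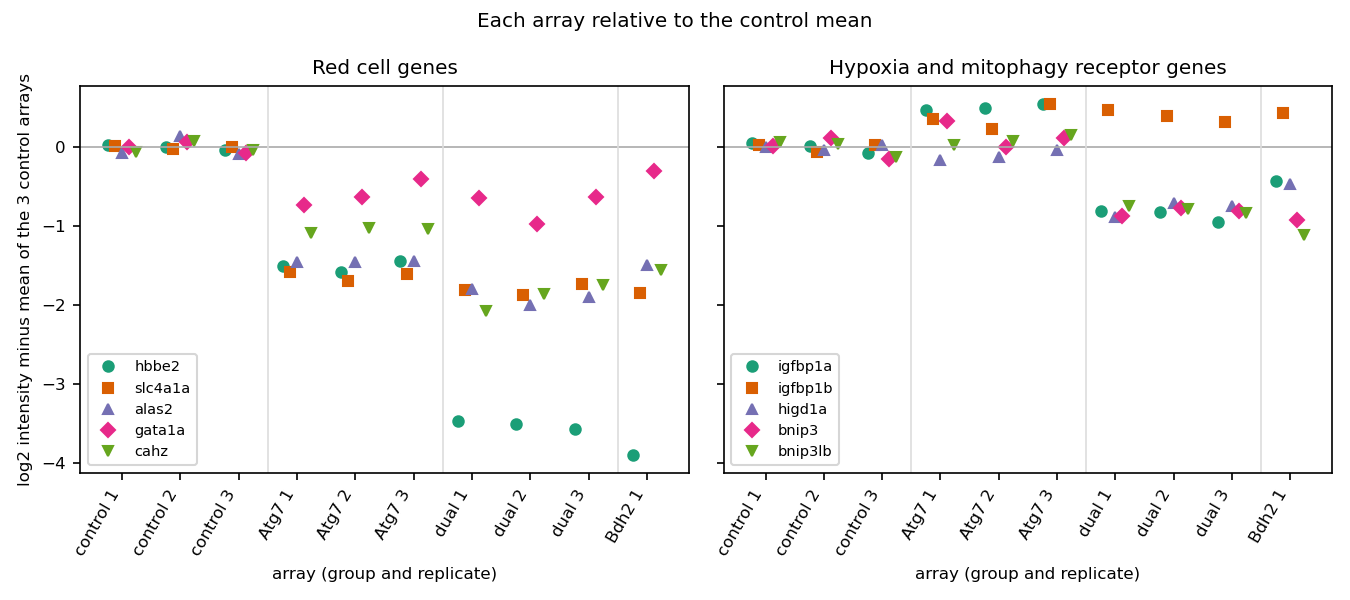
Log2 intensity of each array minus the mean of the 3 control arrays (vertical axis), for 5 red cell genes picked by name (left) and for the brightest probe set of each of the 5 hypoxia and mitophagy receptor genes (right), with the arrays along the horizontal axis. The Atg7 arrays are below zero for every red cell gene on the left. On the right they are above zero for igfbp1a, igfbp1b and bnip3lb, the last by a mean of 0.092 that was not called. The dual and Bdh2 arrays are below zero for all genes shown but igfbp1b.

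The genes that sense oxygen and carry the HIF signal were read by 12 probe sets for 9 of 17 listed genes. None was called in Atg7 minus control, where 9.91% of all probe sets were called, too low a share for so few probe sets to differ from it. There 2 rose with dim probe sets left out and 1 with trend and robust eBayes. In dual minus control 1 rose and 3 fell, or 8.33% and 25% of them against 16.7% and 15.9% of all probe sets (median -0.11). The number that fell was 1 without control replicate 3 or without dual replicate 2, and the rise, in a dim probe set, was absent from the fit without dim ones. egln1b, a prolyl hydroxylase gene, fell by 0.38 ± 0.076 (adjusted p = 0.00208). The HIF alpha subunit genes epas1a and hif1ab fell by 0.25 ± 0.071 in 1 of 3 epas1a probe sets and by 0.19 ± 0.065 (adjusted p = 0.0179 and 0.0443). The hif1ab call was lost in 11 of 15 alternatives, and that of epas1a without control replicate 3 or dual replicate 2 (adjusted p = 0.0581 and 0.0807). arnt2, which encodes a partner subunit, rose by 0.52 ± 0.10 (adjusted p = 0.00164) in 1 probe set and stood at -0.21 in another (adjusted p = 0.0704). egln3, chosen after its values were seen, is both a prolyl hydroxylase and a HIF target. Its mean log2 value was 7.07 in control, 7.27 in Atg7 and 6.90 in dual morphants, and 7.97 in the lone Bdh2 array. The rise of 0.90 over controls was thus in that single array and absent from the dual morphants, which were 1.07 below it. They differed from controls by -0.17, which was not called (adjusted p = 0.0514) but passed in 2 of 15 alternatives. Relative to Atg7 morphants they were lower by 0.37 (adjusted p = 0.000617). The departure from additivity, at -1.27, rests on the Bdh2 array too.

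Other known HIF targets were measured for 29 of 50 listed genes, by 34 probe sets. In Atg7 minus control 4 rose and 0 fell (11.8% and 0% of them, against 6.26% and 3.64% of all probe sets), with a median of -0.0052. The number that rose was 2 without control replicate 2, and 2 with probe sets of a mean log2 value under 5 left out. cygb1, a cytoglobin, rose by 0.46 ± 0.074 and by 0.50 ± 0.11 in its probe sets (adjusted p = 0.00246 and 0.0131), both dim. pfkfb3, a regulator of glycolysis, rose by 0.51 ± 0.13 in 1 of 2 probe sets (adjusted p = 0.0312), a call lost in 6 of 15 alternatives. The remaining rise, named so that all 4 are given, was in bhlhe40, whose probe set was bright (mean of 9.38 in controls). It rose by 0.30 ± 0.063 in Atg7 minus control (adjusted p = 0.0117) and by 0.26 ± 0.063 in dual minus control (adjusted p = 0.00739). In Bdh2 minus control bhlhe40 was at 0.39. In dual minus control 6 rose and 10 fell (17.6% and 29.4% of them, against 16.7% and 15.9% of all probe sets), with a median of -0.12. With the dim probe sets left out, 2 rose and 10 fell.

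ddit4, an inhibitor of mTOR that many stresses induce, fell by 4.04 ± 0.13 in dual minus control, the largest change of this list (adjusted p = 8.38e-10), and it stood at -3.94 in Bdh2 minus control and -0.19 in Atg7 minus control. stc2a, a stanniocalcin gene, fell by 0.64 ± 0.073 in dual minus control (adjusted p = 3.92e-05). The glycolytic enzyme gene pgk1 fell by 0.57 ± 0.058 (adjusted p = 1.73e-05) in its bright probe set and was at -0.18 in its dim one. Against these, cygb1 rose by 0.91 ± 0.11 and 0.63 ± 0.074 (adjusted p = 4.96e-05 and 5.2e-05). The erythropoietin gene epoa, which encodes the hormone of red cell production, rose by 0.33 ± 0.098 (adjusted p = 0.0221) from a control level of only 3.99. Leaving out control replicate 3, dual replicate 1 or dual replicate 3 ended the epoa call, at adjusted p = 0.0917, 0.0861 and 0.0521. The summed level of the list, as log2 of the summed linear intensities, was set mainly by its brightest probe sets. It was 13.3 to 13.4 in control and in Atg7 arrays, 13.1 in dual and 13.1 in the Bdh2 array.

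Beyond bnip3 and bnip3lb, 24 of 42 listed mitophagy genes were measured by 30 probe sets. In Atg7 minus control 5 rose and 2 fell, or 16.7% and 6.67% of them against 6.26% and 3.64% of all probe sets (median 0.065). The number that rose was 2 without control replicate 2 or 3, and 3 without Atg7 replicate 1 or 2, with the replicate block or with only the compared arrays in the fit. The number that fell was 0 without Atg7 replicate 1 or control replicate 3 and 1 without control replicate 2. sqstm1 and nbr1a, which encode receptors for ubiquitin-marked cargo, rose by 0.56 ± 0.064 and 0.34 ± 0.060 (adjusted p = 0.000218 and 0.00381). bnip4, a further zebrafish gene of the Bnip3 family, rose by 0.30 ± 0.066 (adjusted p = 0.0143), a call that ended without Atg7 replicate 2, control replicate 2 or control replicate 3 (adjusted p = 0.055, 0.0593 and 0.0535). The mitophagy receptor gene bcl2l13 and the mitochondrial import receptor gene tomm20b fell by 0.28 ± 0.060 and 0.26 ± 0.057 (adjusted p = 0.013 and 0.0159), each in 1 of 2 probe sets, and both calls ended without Atg7 replicate 1 or control replicate 3, that of tomm20b also without control replicate 2 (adjusted p from 0.0502 to 0.061).

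Between dual and control morphants 7 mitophagy probe sets rose and 8 fell, or 23.3% and 26.7% of them against 16.7% and 15.9% of all probe sets (median 0.035). fundc2, whose relative fundc1 is a mitophagy receptor in hypoxia, fell by 0.88 ± 0.13 and 0.52 ± 0.061 in its probe sets (adjusted p = 0.000345 and 5.21e-05). bcl2l13 fell by 0.53 ± 0.10 (adjusted p = 0.00181) and, in its second probe set, by 0.47 ± 0.060 (adjusted p = 9.05e-05). The mitochondrial phosphatase gene pgam5 rose by 0.67 ± 0.11 (adjusted p = 0.000542) in a dim probe set and by 0.27 ± 0.079 (adjusted p = 0.0208) in a brighter one. The LC3 gene map1lc3a rose by 0.35 ± 0.075 (adjusted p = 0.00366) and the autophagy receptor gene tax1bp1b by 0.29 ± 0.065 (adjusted p = 0.00487). The remaining genes of the HIG domain family had no named probe set.

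The insulin-like growth factor genes on which igfbp1 proteins act, with their receptors and other binding proteins, were measured for 12 of 21 listed genes by 17 probe sets. In Atg7 minus control 3 rose and 0 fell, or 17.6% and 0% of them against 6.26% and 3.64% of all probe sets. The insulin receptor substrate gene irs2a rose by 0.61 ± 0.087 and the growth factor gene igf2b by 0.59 ± 0.078 (adjusted p = 0.00118 and 0.000669), while igf2a rose by 0.22 ± 0.060 (adjusted p = 0.0415), a call lost in 11 of 15 alternatives. In dual minus control 2 rose and 1 fell, or 11.8% and 5.88% against 16.7% and 15.9% of all probe sets, both below those shares, and 1 rose without Atg7 replicate 2, control replicate 1 or 2, or any 1 of the dual replicates. The receptor gene igf1rb rose by 0.70 ± 0.11 in 1 of 2 probe sets (adjusted p = 0.000412), irs2a by 0.26 ± 0.087 (adjusted p = 0.0392, lost in 6 of 15 alternatives) and igf2a fell by 0.23 ± 0.060 (adjusted p = 0.0109). The other measured binding protein genes igfbp2a, igfbp3 and igfbp5b were not called in either comparison.

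igfbp1 and bnip3 are also known to respond to fasting signals, and a list of glucocorticoid and fasting genes was measured for 13 of 24 genes by 19 probe sets. In Atg7 minus control 5 rose and 1 fell, or 26.3% and 5.26% of them against 6.26% and 3.64% of all probe sets, and 3 rose without control replicate 1 or 2. The transcription factor genes cebpd, cebpb and foxo3b rose by 0.74 ± 0.073, 0.62 ± 0.074 and 0.55 ± 0.061 (adjusted p = 8.4e-05, 0.000308 and 0.000161). The rises of cebpd and foxo3b were each in 1 of 2 probe sets. Their other probe sets were not called, at 0.0058 for cebpd, where it was dim, and 0.11 for foxo3b. fkbp5, a cochaperone of the glucocorticoid receptor, fell by 0.32 ± 0.079 (adjusted p = 0.0253), a call lost in 5 of 15 alternatives, among them those without Atg7 replicate 2 or 3 or without control replicate 2 or 3. In dual minus control 3 rose and 5 fell, or 15.8% and 26.3% against 16.7% and 15.9% of all probe sets, and 3 fell without control replicate 3. Of the list, fkbp5, klf9 and tsc22d3 fell by 1.18 ± 0.079, 0.83 ± 0.074 and 0.51 ± 0.073 (adjusted p = 4.59e-07, 5.49e-06 and 0.000203). pdk4, pck1 and tat, which encode metabolic enzymes and are known in mammals to respond to glucocorticoids and fasting alike, rose by 0.77 ± 0.085, 0.68 ± 0.079 and 0.56 ± 0.075 (adjusted p = 3.02e-05, 4.59e-05 and 0.00013). The tat probe set was dim, with means of 3.32 in control and 3.88 in dual morphants.

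**Figure D4:**
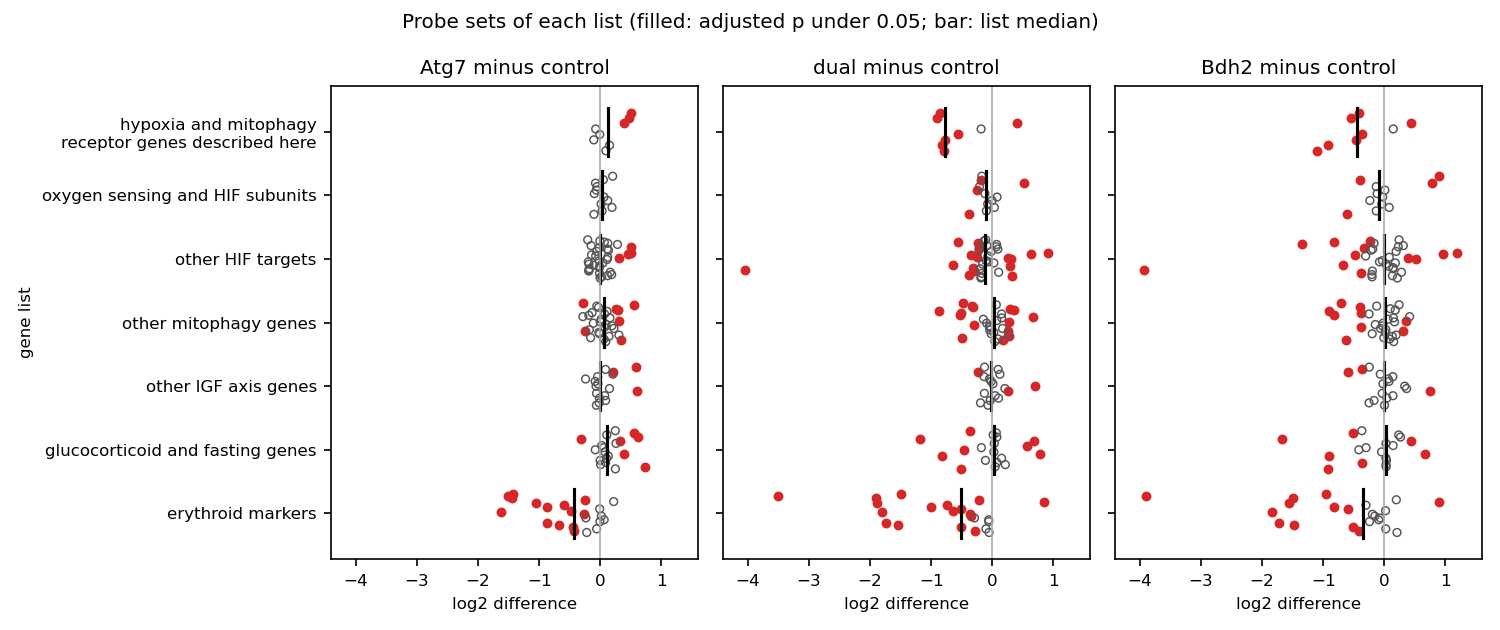
Log2 difference (horizontal axis) of each probe set of 7 gene lists (vertical axis) in 3 comparisons with the same control arrays; filled points passed an adjusted p of 0.05 and bars are list medians. The erythroid markers have medians of -0.43 in Atg7 and -0.51 in dual morphants, while the other HIF targets have medians of -0.0052 and -0.12.

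Markers of other tissues were read beside these genes. Of 12 liver marker probe sets, all for different genes, 4 rose and 0 fell in Atg7 minus control, or 33.3% and 0% against 6.26% and 3.64% of all probe sets. Between dual and control morphants 4 rose and 5 fell, or 33.3% and 41.7% against 16.7% and 15.9% of all probe sets, and in the Bdh2 array 1 was higher and 5 were lower, or 8.33% and 41.7% against 15% and 13.2%. Their summed level was 15.5 to 15.6 in control, 15.6 in Atg7, 15.6 to 15.7 in dual arrays, with 15.5 for the lone Bdh2 array. Their mean log2 value, which weights each marker alike, had another order, at 10.63 to 10.67 in control, 10.74 to 10.76 in Atg7, 10.50 to 10.52 in dual arrays, and 10.20 for Bdh2. Of 12 muscle marker probe sets, limma called 0 in Atg7 minus control, against 9.91% of all probe sets. It called 1 or 2 with quantile normalization, without dim probe sets, with trend and robust eBayes, or without dual replicate 3. Between dual and control morphants 3 fell, or 25% against 15.9% of all probe sets (7 with trend and robust eBayes), and 10 were lower in the Bdh2 array, or 83.3% against 13.2%. Their summed level was 17.0 in control, 17.0 in Atg7, 16.8 to 16.9 in dual arrays, with 16.5 for the lone Bdh2 array. An array gives no value of 0, so none of these markers could be called absent. The part of tissue makeup in the changes of igfbp1a, higd1a, bnip3 and bnip3lb was not tested.

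The genes whose pattern over the 10 arrays was most like each of the 5 were found by Pearson's r of log2 values, among 2629 to 2630 named probe sets with an SD of at least 0.2 over the arrays. Arrays of a group share their treatment, so these r values describe mainly the steps between groups. For igfbp1a they were ahcyl1 and cited4a (both r = 0.986) and itga5, an integrin subunit of the fibronectin receptor (r = 0.982). igfbp1b was closest to scel (r = 0.960), rgcc (r = 0.944) and abhd2a (r = 0.941). higd1a was closest to hemk2 (r = 0.989), pop4, a subunit of the RNA-processing enzyme RNase P (r = 0.988), and ruvbl1 (r = 0.987). bnip3 was closest to ppp2r2d (r = 0.985), trpc4apb and mknk2a (both r = 0.984).

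bnip3lb was closest to pgk1, the glycolytic enzyme gene of the HIF target list (r = 0.993), then to uroc1, an enzyme of histidine breakdown (r = 0.992), and ponzr1 (r = 0.991). Among the listed genes alone, bnip3lb was followed after pgk1 by the liver marker cp, which encodes ceruloplasmin, a copper-bound oxidase of plasma iron (r = 0.988), and by the liver marker ambp (r = 0.977). cp was at 0.37 in Atg7, -1.77 in dual and -2.41 in Bdh2 minus control. bnip3 was closest among them to aqp1a.1 (r = 0.970), fundc2 (r = 0.966) and bnip3lb (r = 0.964), higd1a to ddit4 (r = 0.955), and igfbp1a to klf9 (r = 0.915) and then bnip3 (r = 0.906). igfbp1b had no listed gene above r = 0.804, reached with cygb1.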

How the data were processed

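The deposited table gave log2 intensities, already summarised by the authors over the probes of each set. Per the submitters' processing notes the software was Affymetrix Expression Console. No source used here gives its settings, normalization included, and the log2 scale was read from the range, 2.48 to 14.9. Of 15617 probe sets, 115 controls were left out. The platform annotation gave 1 symbol for 10795 of the rest, and 10711 had an Entrez ID in RefSeq (GRCz12tu), used for current symbols only.

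All 10 arrays were fitted together (4 groups, 6 residual degrees of freedom) by limma 3.58.1 under R 4.3.3 (lmFit, then eBayes), which was tested on simulated data. Adjusted p is Benjamini-Hochberg's over 15502 probe sets, with 0.05 as the threshold. Errors are SE unless SD is written. Named from each list were the up to 3 called rises and 3 called falls of largest size in dual and in Atg7 minus control. This rule was not applied to the erythroid, liver and muscle markers. Of the erythroid markers, hbbe2, slc4a1a, alas2, gata1a and cahz were picked by name. egln3, bhlhe40 and blvrb were named in addition. The members, lists and tests were chosen with earlier results of these data known. For arrays, their number limits the precision. No detection calls were used. Alternatives were quantile normalization, median centring, a filter on dim probe sets, trend and robust eBayes, fits of the compared arrays only, a replicate block and leaving out each array of a triplicate. RefSeq sequences were not used here.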

Additional observations from a re-analysis of the deposited data

Results flagged for a closer look

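The departure from additivity was called for both igfbp1a probe sets, at -0.84 in the first and -0.95 in the second. igfbp1a was higher in Atg7 than in control morphants and lower in dual morphants than in the Bdh2 array. The departure was also called in each of the 14 alternatives that could be fitted, and it rests on 1 Bdh2 array. The dose of each morpholino in dual morphants is not given, so a difference in dose cannot be told apart from it.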

How the results depend on the processing

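Each result was recomputed under up to 15 alternatives. Over 116 single-gene differences, 1591 of 1691 recomputed values kept their direction and their side of the threshold, 86 lost and 4 gained a call, and 10 changed sign, none of them called. The sign changes were in bnip3 in the departure from additivity (0.032 with quantile normalization, 0.0011 with the replicate block, -0.13 to 0.041 when 1 array was left out) and, when 1 array was left out, in bdh2 (-0.014 to 0.086) and the second higd1a probe set (-0.059 to 0.039) in Atg7 minus control, and in igfbp1b in dual minus Atg7 (-0.057 to 0.099) and dual minus Bdh2 (-0.073 to 0.00089). The number of the 8 probe sets called in dual minus Bdh2 was 4, and 2 to 4 when 1 array was left out. Called probe sets in Atg7 minus control, 1536 in all, ranged from 811 to 1560 when 1 array was left out. With the replicate number as a block, 1006 were called there, 708 in the departure from additivity (1261 without the block), 1144 in dual minus Bdh2 (1870 without it), and 2 of the 8 probe sets in dual minus Bdh2. Deviations of same-numbered arrays correlated between -0.375 and 0.197, so the numbers were not taken to pair the samples. The cause of these changes was not tested. The filter on dim probe sets removed the second bnip3lb probe set by construction. bnip3, cygb1, epoa, gata1a and tat had low intensities, and no detection call was used for them.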
